A study of Mus musculus with 104 samples.

Results

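D1 is the parent GalNAc-siRNA against *Hao1*, and its 10 nM transfection in primary mouse hepatocytes was compared with mock transfection across the whole transcriptome. The members were chosen by their treatment label alone, which gave 4 libraries of a series that holds 6 siRNAs at 4 doses, each in 4 libraries, and 8 mock libraries, and the controls were all 8 mock libraries. Both groups were mouse hepatocytes in culture, reverse-transfected with the lipid reagent Lipofectamine RNAiMax and harvested after 24 h, and mock wells are named in the labels only as mock-transfected controls. D1 carries 2′-fluoro and 2′-O-methyl nucleotides with no glycol nucleic acid (GNA), D2 differs from it by GNA-C at guide position 5, and D4 is the parent duplex against *Ttr*. D2 at 10 nM, D1 at 50 nM and D4 at 10 nM, with 4 libraries each, were used as further comparisons. Strain, sex and age of the donor animals are not given in the sources used here, and nothing in them says that libraries of a group came from separate cultures or animals, so p-values measure only the spread between these samples, which may be technical.

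A small interfering RNA loads its antisense (guide) strand into an Argonaute protein, which cleaves a transcript paired along the whole guide. Pairing of the seed alone, guide positions 2 to 8, can repress other transcripts in the manner of a microRNA, mostly through sites in the 3′-UTR and more weakly through sites in coding sequence. *Hao1* encodes the peroxisomal glycolate oxidase of the hepatocyte, the enzyme that makes glyoxylate from glycolate. Hepatocytes also make most plasma proteins, and they divide little unless stimulated.

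The on-target site and 6 seed-matched sites are printed to show what the guide could pair with in the genes described below. Each is the transcript strand, read 5′ to 3′ in GRCm39 with GENCODE vM39 transcripts, as 23 bases ending opposite guide position 1, with the bases that match the seed region in capitals. The *Hao1* site lies at chr2:134340220-134340242 on the minus strand, in the coding part of exon 8 of 8. The seed matches of *Rnf115* (chr3:96697516-96697523, exon 9), *Elovl6* (chr3:129427188-129427195, exon 4) and *Actg1* (chr11:120236668-120236674, exon 6) lie in the 3′-UTR. Those of *Cdh17* (chr4:11783201-11783207, exon 6), *Drosha* (chr15:12926097-12926104, exon 31) and *Kif11* (chr19:37398031-37398037, exon 15) lie in coding sequence.
Hao1, coding, full site: cagaatgtgaaagtcATCGACAA
RNA complementary to the Hao1 site, seed in capitals: uUGUCGAUgacuuucacauucug
Rnf115, 3′-UTR: tacaggtggaattgtATCGACAA
Elovl6, 3′-UTR: tcatcacgaaaaataATCGACAA
Actg1, 3′-UTR: gttgggaacgtttgcATCGACAc
Cdh17, coding: gttatgtactttcaaATCGACAg
Drosha, coding: atcgcagcgctgtacATCGACAA
Kif11, coding: tattttcagggcttcATCGACAg

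The target itself was read first. *Hao1* stood at 1.39, 1.48, 1.46 and 1.07 log2 CPM (the log2 of the read count scaled to a common library size) in the 4 D1 libraries, against a lowest, median and highest value of 4.82, 5.12 and 5.29 in mock. No D1 library came near a mock library. These levels rest on 9 to 12 counts per D1 library and 117 to 205 per mock library. *Hao1* fell by 3.97 ± 0.17 on the log2 scale (edgeR estimate ± SE, here and below), which left 6.39% of the mock level (adjusted p = 2.22e-18).

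The 4 D1 libraries held 5028063 to 5385354 gene counts (median 5096331), and the 8 mock libraries 3409963 to 5308584 (median 4927571). Replicates differed by more than counting noise in both groups. The first principal component took 29.6% of the variance and separated all D1 from all mock libraries, and the second, with 15.9%, set D1 library 4 and mock library 8 apart from the other 10, so counts of calls are also given without both. Spike-in RNA made up 0.762 ± 0.131% of counts in D1 and 0.582 ± 0.106% in mock (SD, n = 4 and 8; exact two-sided permutation p = 0.0485), and whether this moved with any result was not tested. Defining transcripts of the hepatocyte were present, with *Alb*, the gene of serum albumin, at 15300 ± 1480 CPM in D1 and 13400 ± 580 CPM in mock. Some genes of the mature hepatocyte stood low in both groups, among them *Cps1* of the urea cycle at 6.66 ± 1.75 and 4.88 ± 1.06 CPM. Of the markers of stellate, Kupffer, endothelial and lymphoid cells, *Pdgfrb*, *Adgre1*, *C1qa*, *Marco*, *Vsig4*, *Cdh5*, *Clec4g*, *Kdr*, *Nkg7* and *Ptprc* had no count in any of the 12 libraries. The stellate list was not at 0, with *Reln* at 21.8 ± 1.88 CPM in D1 and 19.7 ± 3.78 CPM in mock, nor was the Kupffer list, with the lysosomal *Cd68* at 24.1 ± 7.97 and 19.7 ± 2.78 CPM. The summed level was 20.61 to 25.92 CPM in D1 and 14.62 to 26.98 CPM in mock for the stellate list, and 14.32 to 34.35 and 16.58 to 23.17 CPM for the Kupffer list. The endothelial list summed to 5.643 to 7.613 CPM in D1 and 5.279 to 9.875 CPM in mock. The lymphoid list summed to 1.3 to 2.724 CPM in D1 and 0.5865 to 4.521 CPM in mock. Only 1 of 8 stellate, 1 of 8 Kupffer, 2 of 8 endothelial and 1 of 5 lymphoid markers had enough counts to be tested. None of those tested passed, and change in the others was not tested. Cholangiocyte markers had a summed level of 212.1 to 242.7 CPM in D1 libraries and 149.9 to 175.9 CPM in mock libraries.

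Of 11323 genes tested, 2156 passed an adjusted p of 0.05, which is 19.0% of them. Higher in D1 were 955 (8.43%) and lower were 1201 (10.6%). Without D1 library 4 and mock library 8 the counts were 795 higher and 1037 lower. Most changes were small: the median size was 0.33 on the log2 scale for higher genes and 0.42 for lower genes, and 43 higher against 160 lower genes changed by more than 1. Levels of all 4 D1 libraries lay above all 8 mock libraries for 493 genes (4.35%) and below them for 741 (6.54%). Calls depended on the level of the gene, at 9.06% of genes with an average under 3 log2 CPM, 17.4% between 3 and 6, and 27.9% above 6.

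**Figure D1:**
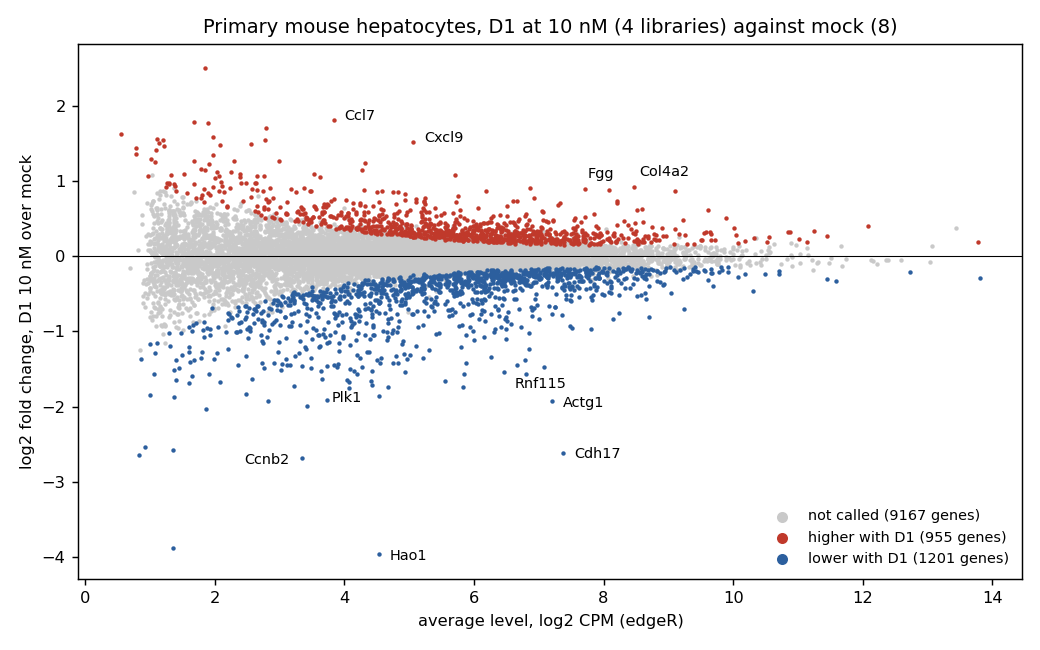
Average level of each gene (log2 CPM, horizontal) against its log2 fold change in D1 10 nM over mock (vertical) for the 11323 genes tested, with the 955 higher and 1201 lower calls coloured. *Hao1* lies lowest among the genes named on the plot at -3.97, and 160 called genes lie below -1 against 43 above 1.

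By the naming rule (called, average of at least 3 log2 CPM, no overlap between groups), the 12 most decreased genes were *Hao1*, *Ccnb2*, *Cdh17*, *Casc4*, *Actg1*, *Prr11*, *Plk1*, *Ccnb1*, *Hmmr*, *Msln*, *Tk1* and *Cdc20*. Several have roles in cell division, which was not tested as a theme among the 12. *Ccnb1* and *Ccnb2* encode the B-type cyclins that drive entry into mitosis. *Plk1* encodes a mitotic kinase, *Cdc20* an activator of the anaphase-promoting complex, *Hmmr* a spindle-associated protein and *Tk1* the thymidine kinase of S phase.

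*Ccnb2* stood at 1.01, -0.30, 1.65 and 2.05 log2 CPM in D1, against 3.11, 3.82 and 4.44 (lowest, median and highest) in mock. The D1 libraries scattered widely, on 2 to 20 counts each, but all lay below mock, and the change was -2.69 ± 0.33. *Plk1* stood at 3.11, 2.98, 3.47 and 2.87 log2 CPM in D1 and at 4.59, 4.86 and 5.40 in mock, a change of -1.87 ± 0.16 (adjusted p = 4.32e-10). *Ccnb1* stood at 2.93, 2.57, 2.77 and 2.84 log2 CPM in D1 and at 4.16, 4.38 and 4.97 in mock, a change of -1.76 ± 0.16. The groups did not overlap for either gene. *Prr11* (-1.91), *Hmmr* (-1.74), *Tk1* (-1.72) and *Cdc20* (-1.71) changed by similar amounts.

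The cell cycle list, which holds cyclins, cyclin-dependent kinases and DNA replication genes, had 29 members tested. Of these 20 fell (10.6% over all genes tested), none rose, and 16 had all D1 libraries below all mock libraries (6.54% over all genes tested), with a median log2 fold change of -0.47 against 0.00 over all genes tested. Leaving out any single library moved that median only between -0.53 and -0.42, and 1 member was higher without mock library 8. The largest changes among its members were in *Ccnb1*, in *Ccna2*, the cyclin of S phase and G2 (-1.66 ± 0.13), in *Mki67*, the proliferation antigen Ki-67 (-1.48 ± 0.10), and in *Top2a*, the topoisomerase that untangles replicated DNA (-1.44 ± 0.09). *Mki67* stood at 5.72, 5.89, 6.18 and 5.99 log2 CPM in D1, all below the mock range of 7.19 to 7.70 (median 7.41). The replication licensing genes *Mcm2* to *Mcm7* that were tested fell less, between -0.62 and -0.41. *Ccnd1*, cyclin D1 of G1 phase, was at -0.05 ± 0.06 (adjusted p = 0.69). In bulk RNA, fewer cells of a type and less RNA per cell cannot be told apart. One of the 29 members, *Cdk6*, holds a match to the D1 seed in its 3′-UTR or coding sequence on the canonical transcript.

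The remaining strongly decreased genes have other roles. *Cdh17*, a cadherin of epithelial junctions, stood at 5.38, 5.35, 5.22 and 5.04 log2 CPM in D1 and at 7.55, 7.87 and 8.09 in mock. That gap, far wider than the spread in either group, was -2.62 ± 0.09 (adjusted p = 2.13e-17). *Actg1*, the gene of cytoplasmic gamma-actin, stood at 5.86, 5.58, 5.58 and 5.75 log2 CPM in D1 and at 7.50, 7.63 and 7.73 in mock, a change of -1.93 ± 0.07 (adjusted p = 6.54e-20). Its coding sequence is similar to that of *Actb*, so part of its uniquely assigned reads may be lost in every library. *Casc4* stood at -1.99 ± 0.18 and *Msln*, the surface protein mesothelin, at -1.74 ± 0.15.

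**Figure D2:**
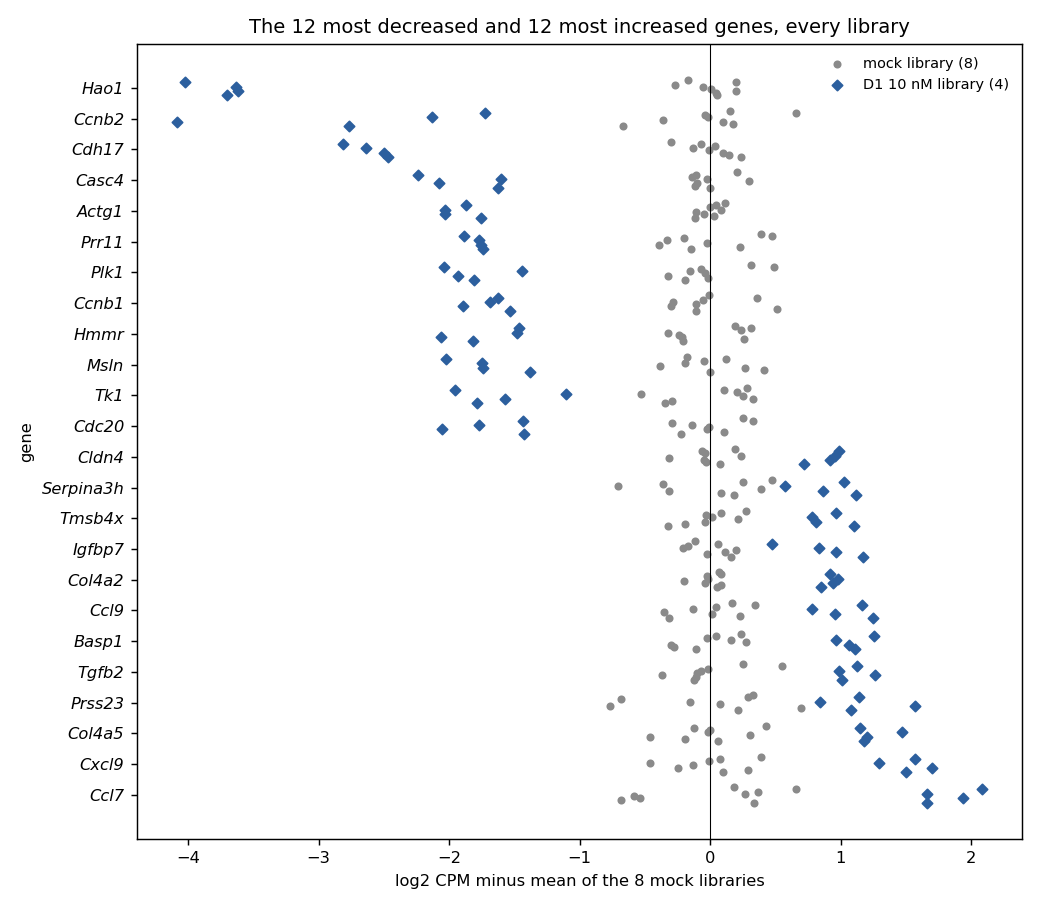
Log2 CPM of each library minus the mean of the 8 mock libraries (horizontal) for the 12 most decreased and 12 most increased named genes (vertical), with 4 D1 and 8 mock points per gene. The naming rule keeps genes whose groups do not overlap, so the plot shows the size of the gaps, from *Hao1* with a log2 fold change of -3.97 to *Ccl7* with 1.81.

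Seed matches were searched in the 3′-UTR and coding sequence of the canonical transcript of each protein-coding gene, *Hao1* left out. The motifs, read on the transcript strand, were ATCGACA, opposite guide positions 2 to 8 (mer7m8), the same followed by A (mer8), and TCGACAA, opposite positions 2 to 7 with A opposite position 1 (mer7A1), which overlaps the first motif in mer8 sites and is counted there once. The 3′-UTR was searched for all of these motifs and coding sequence for mer8 and mer7m8 only. The part of the transcript before the coding sequence was not searched. A match of these letters is a description and not a shown site of pairing. Over the 3′-UTRs of 21594 transcripts searched, 0.296% held mer8, 0.838% mer7m8 and 0.681% mer7A1 as their longest match.

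Of 229 tested genes with any 3′-UTR match, 79 fell (34.5%) and 12 rose (5.24%). Their 3′-UTRs were longer, with a median of 2845 bases against 1327 for genes with no match, and whether length moved with the calls was not tested. The longest matches had the largest share of lower calls, 12 of 29 for mer8 (41.4%), 40 of 114 for mer7m8 (35.1%) and 27 of 86 for mer7A1 (31.4%). Among genes with no match in the 3′-UTR or coding sequence, 921 of 9739 fell (9.46%) and 900 rose (9.24%). The median log2 fold change was -0.15 for mer8 and mer7m8, -0.12 for mer7A1 and 0.01 for no match. The called mer8 genes that fell most were *Tfap2a* (-2.54), *Rnf115* (-1.54), *Camk2n1* (-1.48), *Spata6* (-1.37) and *Cog2* (-1.11). *Tfap2a*, *Spata6* and *Camk2n1* had averages of 0.92, 1.99 and 2.76 log2 CPM, under the 3 of the naming rule. Under the alternatives their changes ran from -2.91 to -0.75, -1.72 to -0.73 and -1.72 to -0.98. *Rnf115*, which encodes an E3 ubiquitin ligase, stood at 5.54, 5.29, 5.16 and 5.16 log2 CPM in D1, with no overlap with the mock range of 6.66 to 7.01 (median 6.84).

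Matches in coding sequence alone were more numerous, and 171 of the 746 genes that held one fell (22.9%) while 36 rose (4.83%). Their median log2 fold change was -0.09. Their coding sequences were also longer, with a median of 2211 bases against 1377 for genes with no match, and whether length moved with the calls was not tested. *Cdh17* is one of them. *Drosha*, the nuclear RNase that cuts primary microRNAs, holds a coding mer8 match and stood at 5.48, 5.16, 5.29 and 5.11 log2 CPM in D1, below the mock range of 5.97 to 6.36 (median 6.22), a change of -0.95 ± 0.08. Its partner *Dgcr8*, which holds no match in the regions searched, rose by 0.52 ± 0.10 with no overlap between groups. Several mitotic genes hold coding matches too. *Kif11*, a spindle motor (-1.43), *Cenpf* (-1.42) and *Kntc1* (-1.38) at the kinetochore, the checkpoint kinase *Ttk* (-1.27) and *Cit*, a kinase of cytokinesis (-1.92), were picked after their values were seen.

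Most lower calls had no match, as did most genes tested. With *Hao1* left out, of 1171 protein-coding genes that fell, 79 held a 3′-UTR match (6.75%), 171 a coding match only (14.6%) and 921 neither (78.7%). The share with neither was 77.9% among the 154 that fell by more than 1. Of all 10714 protein-coding genes tested, 229 held a 3′-UTR match, 746 a coding match only and 9739 neither. Among the 948 that rose, 1.27% held a 3′-UTR match, 3.8% a coding match only and 94.9% neither. The share with neither was thus smaller among genes that fell than among genes that rose. Of the 12 most decreased genes, *Hao1* holds the full target site, *Actg1* a 3′-UTR match and *Cdh17* a coding match. The others hold none in the regions searched.

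**Figure D3:**
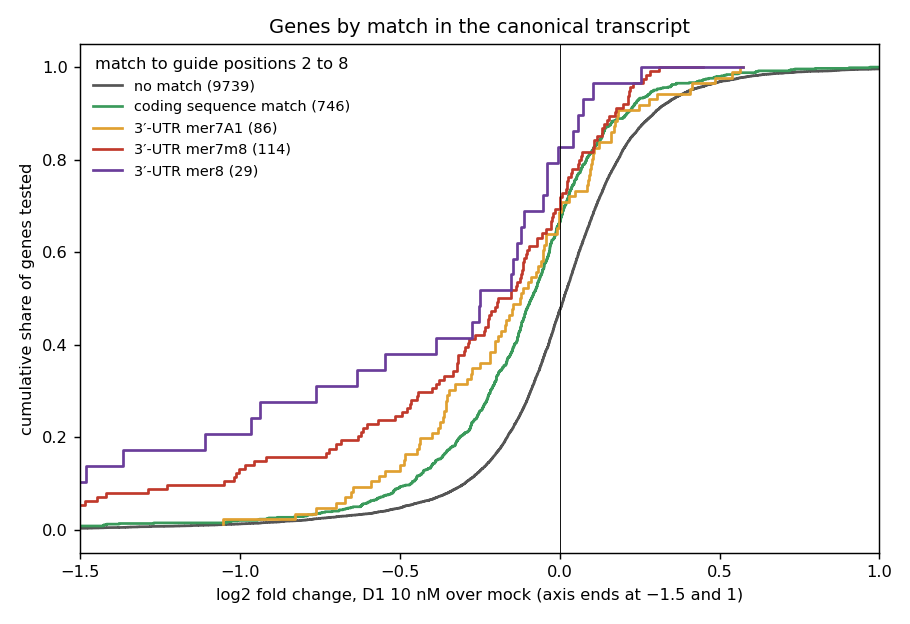
Cumulative share of genes tested (vertical) by log2 fold change in D1 10 nM over mock (horizontal, drawn from -1.5 to 1) for mer8, mer7m8, mer7A1, coding-only and no-match genes. The curves for the 29 mer8, 114 mer7m8 and 86 mer7A1 genes lie left of the curve for the 9739 genes with no match, with medians of -0.15, -0.15 and -0.12 against 0.01.

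The 12 most increased genes by the naming rule were *Ccl7*, *Cxcl9*, *Col4a5*, *Prss23*, *Tgfb2*, *Basp1*, *Ccl9*, *Col4a2*, *Igfbp7*, *Tmsb4x*, *Serpina3h* and *Cldn4*. They include 3 chemokines and 2 chains of type IV collagen, the collagen of basement membranes. *Ccl7*, a chemokine that attracts monocytes, stood at 4.54, 4.81, 4.53 and 4.96 log2 CPM in D1 and at 2.19, 3.10 and 3.53 in mock. It rose by 1.81 ± 0.18 (adjusted p = 3.29e-08), which is 3.50-fold. *Cxcl9*, a chemokine that attracts T cells, stood at 5.84, 6.03, 5.63 and 5.90 log2 CPM in D1 and at 3.87, 4.37 and 4.73 in mock, a change of 1.52 ± 0.11. *Ccl9* rose by 1.06 ± 0.14.

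*Col4a2*, a chain of type IV collagen, stood at 8.94, 9.03, 9.07 and 9.01 log2 CPM in D1 and at 7.89, 8.11 and 8.17 in mock. The D1 libraries sat close together and above every mock library, and the change was 0.92 ± 0.05 (adjusted p = 1.19e-14). Other chains of the same collagen rose too, *Col4a1* by 0.86 ± 0.06 and *Col4a5* by 1.25 ± 0.12. *Tgfb2*, which encodes a transforming growth factor, rose by 1.10 ± 0.15. *Tmsb4x*, which encodes the actin-binding peptide thymosin beta 4, rose by 0.90 ± 0.08, and *Cldn4*, which encodes a tight-junction claudin, by 0.89 ± 0.07. Of the 6 cholangiocyte markers, 5 were tested, of which 4 rose and none fell, among them *Krt19* (0.59 ± 0.07) and *Epcam* (1.78 ± 0.27). *Spp1* went the other way, with a lower mean level in D1 than in mock. *Krt19* made up most of the summed level of these markers, at a mean of 171 CPM in D1 and 114 CPM in mock. The part of that summed level in these results was not tested.

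Genes of secreted plasma proteins were among those that rose. Of 34 secreted plasma proteins tested, 14 rose and none fell, with a median of 0.21, where 8.43% of all genes tested rose. *Fgg*, the gamma chain of fibrinogen, stood at 8.33, 8.76, 8.54 and 8.76 log2 CPM in D1, above the mock range of 7.47 to 7.83 (median 7.78), a change of 0.88 ± 0.07. *Ttr*, which encodes the thyroxine carrier transthyretin, rose by 0.62 ± 0.06, *Ahsg* (fetuin-A) by 0.51 ± 0.10 and *Hrg* (histidine-rich glycoprotein) by 0.49. Leaving out single libraries gave 10 to 21 higher members, with the lowest count without D1 library 4. Without that library and mock library 8 the count was 11.

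Acute phase genes, which the liver expresses in inflammation, were kept as a list of their own with no gene in common. Of 24 tested, 10 rose and none fell (median 0.22), where 8.43% of all genes tested rose, led by the protease inhibitor *Serpina3n* (0.63), the serum amyloid gene *Saa2* (0.51), *Apcs* (0.45) and the cytokine receptor chain *Il6st* (0.38). The count of higher members was 6 to 12 when single libraries were left out, with 6 and a median of 0.12 without D1 library 4, and it was 6 without D1 library 4 and mock library 8. *Serpina3* and *Saa* genes have near-identical copies, so the split of reads among them is uncertain.

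Of 22 endoplasmic reticulum chaperone genes, which fold and check secreted proteins, 10 rose and none fell (median 0.17), where 8.43% of all genes tested rose. The changes were small, from 0.17 for *Sel1l* and *Pdia3* to 0.38 ± 0.08 for *Creld2*. *Hspa5*, the chaperone BiP, rose by 0.33, and *Calr* (calreticulin) stood at 10.88, 11.11, 11.03 and 11.15 log2 CPM in D1 against 10.64, 10.72 and 10.83 in mock, with no overlap. Targets of ATF4, a factor of a related stress response, showed no common direction, with 3 higher and 4 lower of 26 (median 0.00). Over all genes tested, 8.43% were higher and 10.6% lower. Without D1 library 1, 5 ATF4 targets were higher. *Phgdh* of serine synthesis fell by 0.68 and *Vldlr* rose by 0.57.

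Of 26 xenobiotic P450 and conjugating enzymes, which oxidize and couple drugs, 9 rose and 1 fell (median 0.25). Over all genes tested, 8.43% rose and 10.6% fell. *Ugt2b5* rose by 0.86, *Ces1d* by 0.74 and *Cyp2c29* and *Cyp2d22* by 0.70 each, and *Cyp3a13* fell by 0.33. Single libraries left out gave 5 to 11 higher members, with the fewest without D1 library 4 and 2 lower members without D1 library 2 or 3 or mock library 6, and 6 were higher without it and mock library 8. These families hold near-identical copies whose reads may be split. Of 24 genes of fatty acid oxidation, 5 rose and none fell (median 0.10), beside the same 8.43% and 10.6% of all genes tested. However, the count of higher members was 1 without D1 library 2 and 2 without D1 library 3 or 4. It was also 2 without D1 library 4 and mock library 8.

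The NF-kappaB and chemokine list was mixed, with 8 of 19 higher and 3 lower (median 0.24). Over all genes tested, 8.43% were higher and 10.6% lower. Besides *Ccl7*, the monocyte chemokine *Ccl2* rose by 0.73, and the pathway's own inhibitors *Tnfaip3* (0.67) and *Nfkbia* (0.65 ± 0.10) rose. *Nfkbia* stood at 5.69, 5.67, 5.45 and 5.60 log2 CPM in D1, above the mock range of 4.68 to 5.24. The 3 that fell were the adhesion molecule *Vcam1* (-0.55), the neutrophil chemokine *Cxcl1* (-0.42) and *Tnfaip2* (-0.37). Interferon response genes had 3 higher and 4 lower of 40 (median 0.11), not far from the 19.0% called over all genes tested. No member was higher without D1 library 2 or 3, 1 was without mock library 2, 3, 6 or 8, and the median without single libraries ran from 0.04 to 0.17. The members included *Rsad2* at 0.74, whose call was lost under 14 of 21 alternatives, and *Oasl1*, which fell by 0.56.

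Cytoskeleton, matrix and YAP target genes were also split, with 12 of 32 higher and 4 lower (median 0.12). Over all genes tested, 8.43% were higher and 10.6% lower. Type IV collagen, the fibronectin receptor chain *Itga5* (0.87 ± 0.08) and *Cnn2* (0.85 ± 0.10) rose. *Actg1* fell with *Ankrd1* (-0.38), *Anxa2* (-0.30) and *Krt18* (-0.21). The largest increase in the list was that of *Tagln* at 1.56 ± 0.43, whose levels overlapped between groups and whose call was lost without D1 library 4 and mock library 8. Without both, 8 members of the list were higher.

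**Figure D4:**
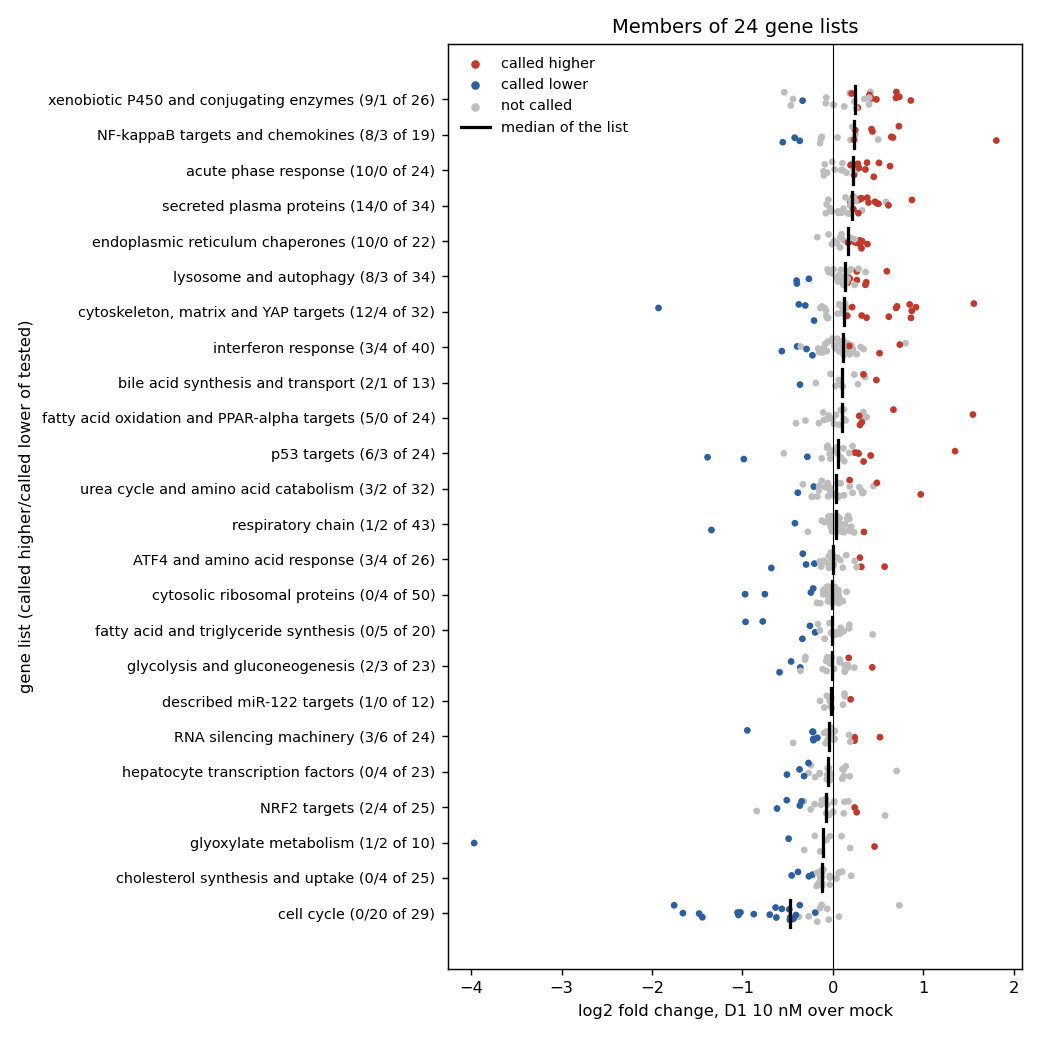
Log2 fold change in D1 10 nM over mock (horizontal) of each tested member of 24 gene lists (vertical), with called members coloured and a bar at the median of each list. The cell cycle list lies lowest, with a median of -0.47 and 20 of 29 members lower, while plasma proteins have 14 of 34 and endoplasmic reticulum chaperones 10 of 22 members higher.

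Genes of lipid synthesis mostly did not pass the test. Of 25 genes of cholesterol synthesis and uptake, 4 fell (*Insig1* -0.46, *Mvd* -0.39, *Lss* -0.26 and *Sqle* -0.23) and none rose, where 19.0% of all genes tested were called and 10.6% fell, which is close to the background. The count was 3 without D1 library 1 and 7 without mock library 4. Of 20 genes of fatty acid and triglyceride synthesis, 5 fell and none rose, although the list median was -0.01. *Elovl6*, a fatty acid elongase with a mer8 match, stood at 5.79, 5.89, 5.76 and 5.76 log2 CPM in D1, below the mock range of 6.70 to 6.90 (median 6.73), a change of -0.97 ± 0.07. *Mlxipl*, which encodes the glucose-responsive factor ChREBP, fell by 0.77.

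Some single members of otherwise flat lists changed strongly. *Ndufv1*, the NADH-binding subunit of complex I, stood at 5.21, 5.32, 5.17 and 5.36 log2 CPM in D1 against 6.53, 6.59 and 6.69 in mock, a change of -1.34 ± 0.07. Of the 43 respiratory chain genes, only *Sdha* of complex II (-0.42) and *Uqcrq* of complex III (0.34) also passed, though 6 members were higher without D1 library 3, and 2 without mock library 4, 6 or 8. *Rps25* (-0.97 ± 0.06) and *Rpl5* (-0.75 ± 0.06) fell by far more than *Rpl10a* (-0.24) and *Rpl3* (-0.22), the others called among 50 ribosomal protein genes, whose list median was -0.01. Without D1 library 4 there were 7 lower ribosomal protein genes, without D1 library 2 there were 3, where *Rpl3* lost its call, and without D1 library 3 there was 1 higher. Neither *Ndufv1* nor *Rps25* holds a seed match in the regions searched.

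Of 24 p53 targets, 6 rose and 3 fell (median 0.05), where 8.43% of all genes tested rose and 10.6% fell. *Ei24*, which encodes a membrane protein of the endoplasmic reticulum, fell by 1.39 ± 0.07 and *Phlda3* by 0.98, while *Pmaip1*, which encodes the pro-apoptotic protein NOXA, rose by 1.35 ± 0.27 and *Plk3* by 0.42. Of 24 genes of the RNA silencing machinery, 3 rose and 6 fell, beside the same 8.43% and 10.6% of all genes tested. *Drosha* and *Dgcr8*, given above, had the largest changes, and *Ago2*, the slicing Argonaute, fell by 0.23 ± 0.05 while *Ago1* rose by 0.24 ± 0.06. The 12 described targets of miR-122, the abundant microRNA of hepatocytes, had a median of -0.02, and 1 passed, *Agpat1* at 0.20, a call lost under 11 of 21 alternatives, among them those without D1 library 1, 3 or 4 or mock library 1, 6 or 7.

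Hepatocyte transcription factors had 4 of 23 lower and none higher (median -0.06), where 19.0% of all genes tested were called and 10.6% fell, which is close to the background: *Onecut2* (-0.51), *Hnf4a* (-0.37 ± 0.07), *Zbtb20* (-0.32), whose call was lost under 9 of 21 alternatives, and *Rxra* (-0.27). The calls were 3 lower and 1 higher without mock library 1. *Hnf4a* stood at 7.55, 7.41, 7.71 and 7.73 log2 CPM in D1 and at 7.72, 7.98 and 8.15 in mock, with overlap of the groups. NRF2 targets had 2 higher and 4 lower of 25, where 8.43% of all genes tested were higher and 10.6% lower. Among them *Gsta1* stood at -0.62 and *Gsr* at -0.51, and without D1 library 4 there was 1 higher. Lysosome and autophagy genes had 8 higher and 3 lower of 34 (median 0.13), with the protease gene *Lgmn* at 0.60 and *Ctsb* at -0.40, where 8.43% of all genes tested were higher and 10.6% lower. Higher members numbered 13 without D1 library 1 and 5 without mock library 4 or 7, and the median was 0.07 without D1 library 4. Of 10 tested genes of glyoxylate metabolism, *Pex5*, the peroxisomal import receptor, fell by 0.49 besides *Hao1*, and *Hoga1* rose by 0.46.

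The remaining lists had few calls, at shares not far from the 19.0% of all genes tested, with 3 higher and 2 lower of 32 for the urea cycle and amino acid catabolism, 2 and 3 of 23 for glycolysis and gluconeogenesis, and 2 and 1 of 13 for bile acids. These counts changed with single libraries: the urea cycle list had 1 higher without D1 library 3 or 4 and 1 lower without D1 library 1 or 2, the bile acid list 1 higher without D1 library 3, and the glycolysis list none higher without D1 library 4 or mock library 7, and 1 higher without D1 library 1 or 3 or any of mock libraries 2 to 6. *Tdo2*, the first enzyme of tryptophan breakdown, rose by 0.97 ± 0.25, a call lost without D1 library 3. *Hk1* (-0.59) and *Hk2* (-0.46), which encode hexokinases, fell, but the calls were lost under 2 and 6 of 21 alternatives, among them the one without D1 library 4 and mock library 8 and, for *Hk2*, the one without D1 library 1. *Gapdh* was at -0.11 ± 0.06 (adjusted p = 0.173).

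The next comparison asked how the profile stood against D2, which has the same target and sequence with GNA-C at guide position 5, at the same dose. Of 11116 genes tested, 1184 differed (10.7%), 480 higher (4.32%) and 704 lower (6.33%) in D1. Of the 29 cell cycle genes, 16 were lower in D1 than in D2 and 1 higher, *Ccnd3*, with a median of -0.29. *Mki67* was lower by -1.13 ± 0.09, *Top2a* by -1.05 ± 0.10 and *Ccnb1* by -1.22 ± 0.20 on the log2 scale. Some members of the lists that rose against mock were higher in D1 than in D2, where 4.32% of all genes tested were. These were 5 of 34 plasma proteins (median 0.06), 3 of 24 acute phase genes (0.09) and 3 of 22 chaperones (0.12). No member of these lists was lower, where 6.33% of all genes tested were. The NF-kappaB and chemokine list had 6 higher and 3 lower of 19 (median 0.10). Xenobiotic enzymes had 4 higher and 2 lower of 26 (0.13), and the cytoskeleton, matrix and YAP list 7 and 3 of 32 (0.06). Without D2 library 3, 271 genes were higher in D1, the lowest count when single libraries were left out, and without D2 library 1 the count was 300.

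The 12 most decreased and most increased genes were chosen on the same 4 D1 libraries, so their direction against D2 or D4 is not independent of that choice. All 11 of the 12 most decreased genes that could be tested were lower in D1 than in D2, by -2.63 to -0.99. *Cdh17* differed by as much as from mock (-2.63), and against mock its change with D2 was 0.02. *Hao1* was too low in both groups to pass the filter on counts. Its change against mock was -3.97 with D1 and -4.60 with D2, and in a fit with no filter D1 minus D2 was 0.64 ± 0.44 (adjusted p = 0.53), on 9 to 12 and 3 to 9 counts per library. Of the 12 most increased genes, 9 were higher in D1 than in D2, led by *Ccl7* at 1.39. The 3 that did not pass were *Col4a2* at 0.12 ± 0.07 (adjusted p = 0.285), *Igfbp7* at 0.21 ± 0.16 (0.466) and *Col4a5* at 0.37 ± 0.14 (0.0937).

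The higher dose of D1 gave no gene that differed from 10 nM. Of 11084 genes tested by edgeR against D1 50 nM, 0 passed (0.00%), the smallest adjusted p was 0.959, and 490 had an unadjusted p under 0.05, which is 4.42%. DESeq2 also called 0. Among the 9106 genes with an average of at least 3 log2 CPM, the median SE of the difference was 0.11 and no difference exceeded 1, so smaller differences may not have been detectable with 4 libraries a dose. *Hao1* was at -3.97 against mock at both doses. Set beside each other against the same mock libraries, 0.1, 1, 10 and 50 nM gave 36 (0.320%), 71 (0.632%), 2156 (19.0%) and 2914 (25.9%) calls. The median of the cell cycle list was -0.08, -0.19, -0.47 and -0.67 in that order, with 0, 3, 20 and 24 members lower, where 0.311%, 0.436%, 10.6% and 14.2% of all genes tested were lower.

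D4 at 10 nM served as a transfected comparison with another target. Of 11175 genes tested, 2667 differed (23.9%), 1415 higher (12.7%) and 1252 lower (11.2%) in D1. All 12 of the most decreased genes were lower in D1 than in D4 and all 12 of the most increased genes were higher. Against mock, D4 changed *Ccl7* by -0.42 and *Ccl9* by -1.79, whereas D1 changed them by 1.81 and 1.06. Of the cell cycle genes, 18 were lower in D1 than in D4 (median -0.54), while *Ccne1* (1.30 ± 0.19) and *Ccnd3* (0.87 ± 0.11) were higher. D4 lowered *Hao1* itself by -0.79 on the log2 scale against mock, and D1 was lower than D4 at that gene by -3.17 ± 0.24 in a fit with no filter on counts.

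Side by side against mock at 10 nM, D3, which carries GNA-isoC at guide position 5, gave 1967 calls (17.4%), D2 gave 255 (2.26%) and D4 gave 3019 (26.6%), next to 2156 for D1. The cell cycle list had 18 lower and 3 higher members with D3 (median -0.37), 3 and 1 with D2 (-0.21), and 10 and 6 with D4 (0.04). Over all genes tested, 8.90% were lower and 8.54% higher with D3, 1.09% and 1.17% with D2, and 14.4% and 12.2% with D4. All of these share the 8 mock libraries, so they are given as values only.

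**Figure D5:**
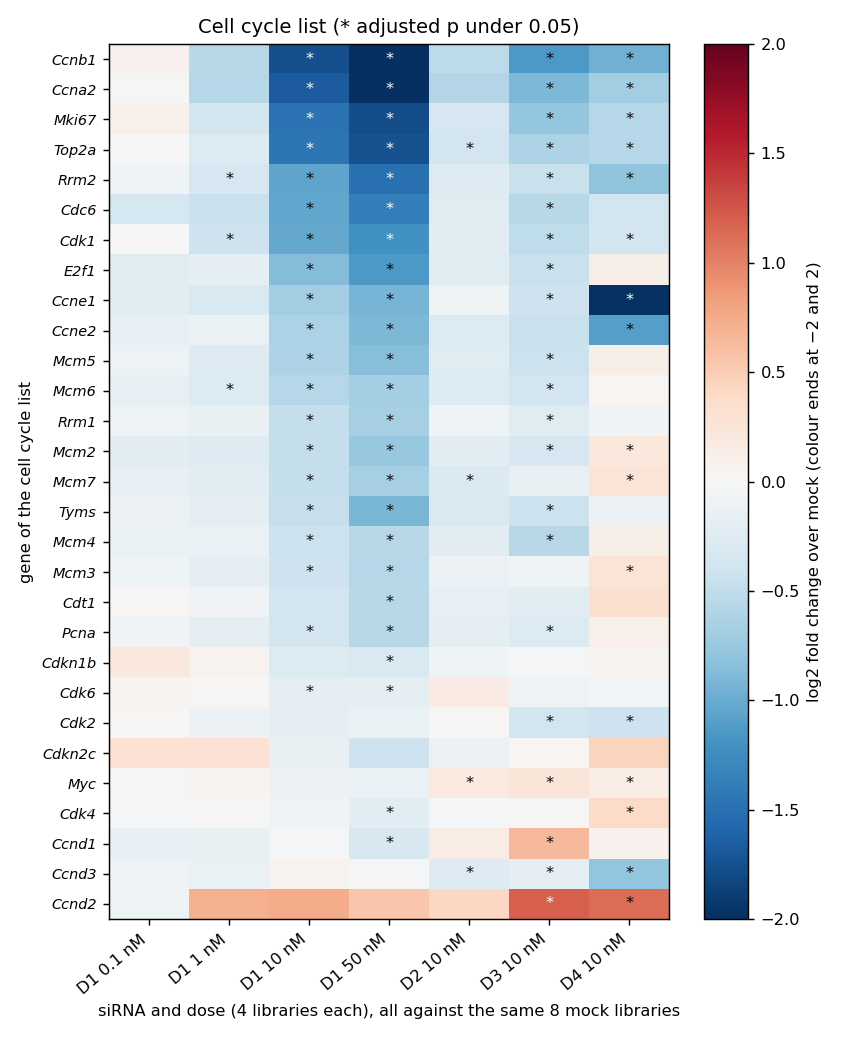
Log2 fold change against mock of each cell cycle gene (rows) for D1 at 4 doses and for D2, D3 and D4 at 10 nM (columns, 4 libraries each against the same 8 mock libraries), with asterisks at an adjusted p under 0.05. The D1 columns darken from 0 lower calls at 0.1 nM and 3 at 1 nM to 20 at 10 nM and 24 at 50 nM.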

How the data were processed

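Total RNA of primary mouse hepatocytes was sequenced by the authors with a stranded kit. They filtered reads, aligned them to GRCm39 with STAR and assigned unique reads to genes with featureCounts 2.0.2, and the deposited counts are whole, unnormalised reads per gene. The annotation and the strand setting of counting are not given in the sources used here, so reads of overlapping antisense genes may not be separable. The deposited DESeq2 tables hold the authors' own comparisons, and only their symbol column was used (52340 of 55416 genes).

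The 2 sequencing runs of each library were summed and 92 spike-ins were dropped. Totals ran from 3409963 to 5385354 counts, and counting error is only part of the spread. The main test was edgeR 4.0.16 (R 4.3.3): TMM factors, filterByExpr, robust glmQLFit and glmQLFTest, with Benjamini-Hochberg adjustment over all genes tested within each comparison and a threshold of 0.05. SE is the size of the log2 fold change divided by the root of its F. Log2 CPM used a prior count of 2, so folds of low genes are understated on that scale. DESeq2 1.42.0 was an alternative. On simulated counts for D1 10 nM against mock (11323 genes), 82.5% of genes lowered by 1 on the log2 scale and 90% raised by 1 were recovered, as were 62.5% lowered and 85% raised by 0.5. Each of these shares rests on 40 genes, and 7 unchanged genes were called. Both groups were simulated with the same spread for a gene and with no library set apart, so recovery in the real libraries may differ. Transcripts came from GENCODE vM39.

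Named genes were *Hao1*, the 12 most increased and 12 most decreased called genes with an average of at least 3 log2 CPM and no overlap between groups, up to 4 called members of each of 24 lists by size of change, the 5 most decreased called mer8 genes and *Gapdh*. Other names were added after their values were seen. The members and lists were chosen with earlier results of these data known. Lists are described by counts and medians, with no test of the list. Alternatives were other scaling factors, no filter on counts, DESeq2, all libraries in one fit, single sequencing runs, the replicate number as a block, single libraries left out and, chosen after seeing the data, D1 library 4 and mock library 8 left out and the longest 3′-UTR. D1 and mock libraries with the same number did not deviate together (correlations of -0.089 to 0.084).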

Additional observations from a re-analysis of the deposited data

Results flagged for a closer look

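For the genes named, the gene counts, the spike-in share and the list medians, 282 groups of 4 or 8 libraries were checked. The check looked for a highest or lowest library set far from its group. Distance was measured as the gap to the nearest library divided by the range of the group. 9 were found, all for named genes, which is fewer than the about 1 in 20 groups that chance gives. In D1 these were library 4 for *Mvd* (gap 0.912 of the range, 5.28 log2 CPM) and *Pex5* (0.895, 5.34 log2 CPM), and library 3 for *Phgdh* (0.914, 6.29 log2 CPM) and *Tagln* (0.936, 0.26 log2 CPM). In mock they were library 4 for *Col4a2* (0.56, 7.89 log2 CPM), *Dnajb11* (0.544, 6.76 log2 CPM) and *Sqle* (0.594, 7.75 log2 CPM), and library 1 for *Cyp4a10* (0.632, 1.12 log2 CPM) and *Il6st* (0.565, 7.56 log2 CPM). *Col4a2*, *Dnajb11* and *Il6st* had no overlap between D1 and mock with these libraries included.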

How the results depend on the processing

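Among the results, named genes and lists recomputed under the alternatives, no called value changed direction. *Hao1* kept its call under all 21 alternatives, with log2 fold changes of -4.04 to -2.89 and a largest adjusted p of 1.55e-15. Counts against mock stayed within 1.5 times of 955 higher and 1201 lower except that the replicate block gave 598 higher (and 882 lower); leaving out single libraries gave 1802 to 2153 calls in all. Upper-quartile factors gave 1111 higher and 1091 lower, 50.5% higher against 44.3%, with the median of all genes at 0.02. Against D2, 271 to 480 genes were higher when single libraries were left out, and against D1 50 nM a fit of all genes with at least 1 count called 1 gene, *Ube2c*, higher in D1 10 nM. Libraries share only a number, and with the replicate block counts were 567 higher and 819 lower against D2, 0 against D1 50 nM, and 1336 and 1137 against D4. No D1 library correlated best with the mock library of its own number (0 of 4). With the block against mock, 1 of the cholesterol genes was lower, and *Rpl3*, *Rpl10a*, *Rxra*, *Tagln* and *Tdo2* were among the genes not called. Mock libraries 5 to 8 share a number with no D1 library, so with the block they add nothing to the estimated difference from mock. The part of this in the shifts was not tested, nor was any other cause. Of the values of single genes and lists under the alternatives, 3647 were classed as the same. For single genes this meant the same direction and side of the threshold. For list counts it meant a count within 1.5 times. For list medians it meant a shift within the SD of the mock library medians, so a median near 0 could change sign. Of single-gene values, 129 kept direction but were no longer past the threshold and 2 came past it, while 114 list counts or medians moved. Lower calls among genes with a 3′-UTR match were 86 of 303 with the longest 3′-UTR and 74 of 209 at a mean of at least 5 CPM. At these depths, genes under 3 log2 CPM were called least.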
